A study of Drosophila melanogaster with 4 samples.

Results

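Chromosome 4 is the smallest chromosome of Drosophila melanogaster, and the regions described here are all those listed as enriched for H3K9me2 on its reference sequence of 1351857 bases (FlyBase Release 5). H3K9me2 is histone H3 carrying a dimethyl group on lysine 9. Regions were taken by their sequence name, leaving out any classed as depleted, of which chromosome 4 had 0. Each replicate had 134 of them, of 6264 enriched regions over the whole genome in replicate 1 and 10907 in replicate 2. The authors' combined list for the replicate set had 186 of 10762. The mark was mapped by chromatin immunoprecipitation with sequencing (ChIP-seq) in nuclei of heads from mixed adult flies of the wild-type strain Oregon-R-modENCODE. The series has 2 ChIP libraries and 2 input libraries, and the lists of the ChIP libraries are compared here with each other. The labels do not say whether the replicates came from separate flies, so the spread between them may be technical. Head nuclei hold many cell types, and a partly marked stretch in all cells and a fully marked stretch in some of them cannot be told apart.

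H3K9 methylation is bound by the heterochromatin protein HP1a and is characteristic of the condensed, repeat-rich chromatin around centromeres. Chromosome 4 is known as an unusual case, because it has many transposon remnants and HP1a along its length and yet carries active genes between them. On this chromosome the methylation is laid down largely by the enzyme Setdb1 (eggless), and a protein specific to this chromosome, POF, binds its genes. Numbering of the sequence starts on the centromere side. In a Release 6 gene table, which is of another build and gives only names and their order, the chromosome holds 80 protein-coding genes. Near the centromere-side end of that order stand ci, the transcription factor of Hedgehog signalling, and pan, the transcription factor of Wnt signalling. Further along come ey and toy, the fly Pax6 genes that control eye formation, with unc-13, a synaptic vesicle priming factor, between them. CaMKII, a calcium-dependent kinase of synapses, lies farther towards the tip, and Cadps, a factor of dense-core vesicle release, is the last. Which of these genes lay inside a marked region was not analysed here, since their Release 5 positions were not at hand.

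Marked and unmarked stretches alternated along the whole chromosome in the list of each replicate. Marked means inside a listed region, and unmarked means outside the listed regions. Unmarked sequence is therefore not shown to lack H3K9me2. Enriched regions covered 661.3 kb in replicate 1 and 403.1 kb in replicate 2, which is 48.9% and 29.8% of the chromosome, and 645.6 kb (47.8%) in the combined list. Regions were short relative to the chromosome. In replicate 1 the lengths ran from 1315 to 30257 bp, with quartiles of 2035 and 5711 bp. In replicate 2 they ran from 1308 to 24994 bp, with quartiles of 1636 and 3315 bp. The replicates thus listed equal numbers of regions, and those of replicate 1 were longer. Regions of at least 10 kb numbered 14 in replicate 1 and 4 in replicate 2, and they held 34.0% and 15.1% of the covered length. The unmarked gaps between neighbouring regions had a median of 2786 bp in replicate 1, and of 3839 bp in replicate 2, beside median region lengths of 3258.5 and 2085.5 bp. Gaps of at least 10 kb numbered 13 in replicate 1 and 27 in replicate 2. Of 270 windows of 5 kb, 16.3% were fully covered and 22.96% free of listed regions in replicate 1, while in replicate 2 the shares were 4.44% and 36.7%. The others, 60.7% in replicate 1 and 58.9% in replicate 2, contained at least 1 border between marked and unmarked sequence or a whole region.

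The authors gave each region a score without a unit, which serves here only to describe and rank regions within a list. Most regions of chromosome 4 scored below the median of their list. They reached or passed the median score of their own list in 39 of 134 cases in replicate 1, 36 of 134 in replicate 2 and 64 of 186 in the combined list. Scores on the chromosome ran from 0.34 to 2.50 in replicate 1 and from 0.068 to 2.77 in replicate 2. Longer regions scored higher, with a Spearman rho of 0.74 (replicate 1) and 0.69 (replicate 2) over 134 regions each. This is a description across regions of 1 library, which are not independent.

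The chromosome was next divided into fixed bins of 50 kb, numbered from the centromere side. There were 27 full bins, and the short remainder beyond them, covered over 0 bp in the 3 lists, was left out of the bin values. Each of the 27 bins held marked sequence in each list. The covered share of a bin ran from 9.83% to 84.7% in replicate 1, with a median of 50.1%. In replicate 2 it ran from 3.01% to 71.6%, with a median of 25.3%. A bin contained between 3 and 10 separate marked pieces in replicate 1 and between 1 and 8 in replicate 2, with a median of 5 in both.

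**Figure D1:**
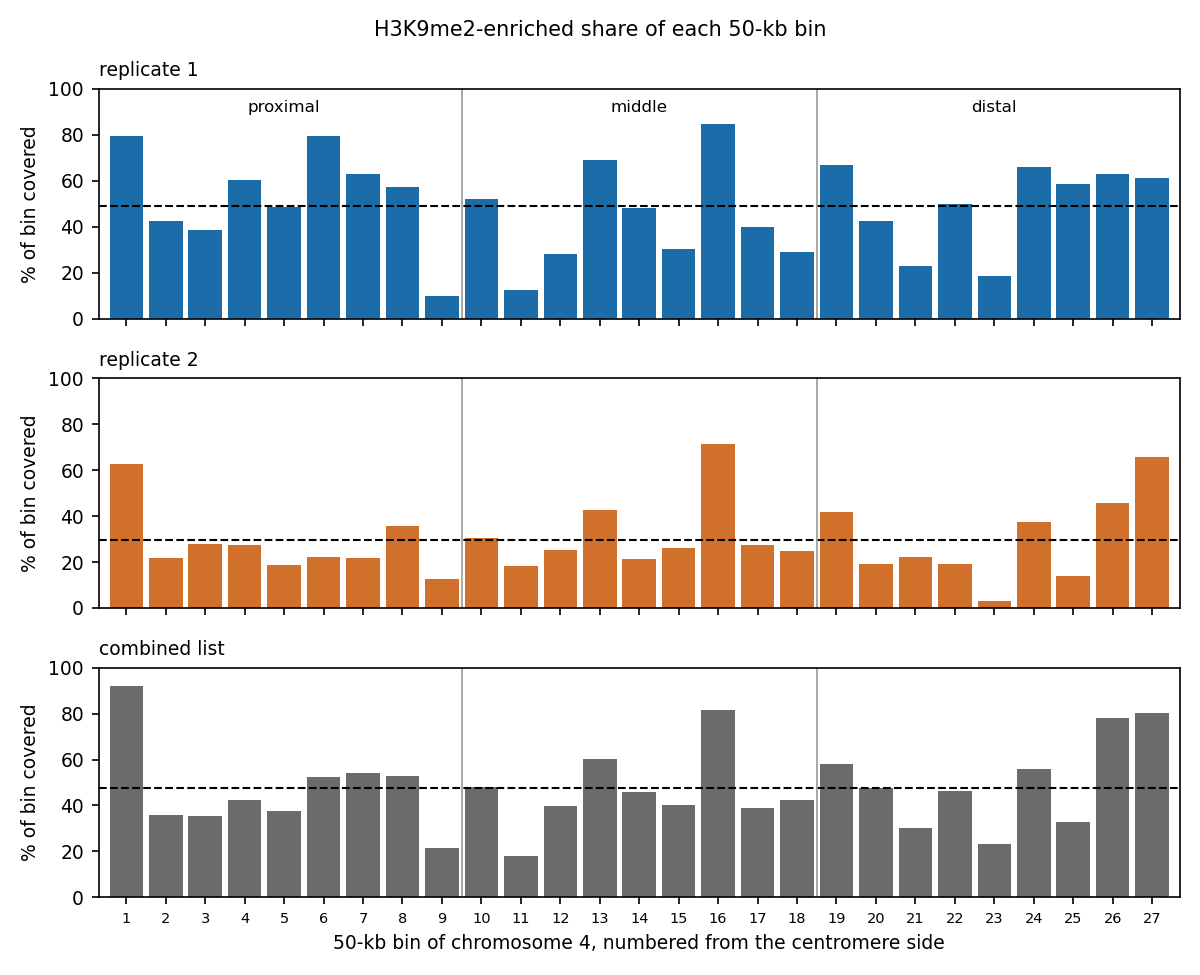
Covered share (percent, bars) of the 27 full 50-kb bins of chromosome 4 in replicate 1, replicate 2 and the combined list, with the share of the whole chromosome in that list as a dashed line and the borders of the parts as vertical lines. Bins 1, 16 and 27 are above the dashed line in each list, and bins 9, 11 and 23 are below it in each. In replicate 1, bins 6, 7, 13, 19, 24 and 26 are also higher than bin 27.

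The alternation was counted as switches between bins above and below the chromosome's own share in that list. Bins lie on both sides of such a cut by construction, so some switches were bound to occur. No count for other sequences or another order of the bins is given beside it. Over the 26 bin borders replicate 1 had 16 switches, and replicate 2 and the combined list had 14 each. Of the switches of the replicates, 11 fell at the same border in both. With 16 and 14 switches over 26 borders some were bound to coincide, and no expected number was computed. Over all bins, 9 were above in both replicates, 13 were below in both, 5 were above in replicate 1 only and 0 in replicate 2 only. The bins above in both were 1, 8, 10, 13, 16, 19, 24, 26 and 27. The longest row of neighbouring bins above the chromosome's share was 4 bins in replicate 1 and 2 bins in replicate 2. Neighbouring bins differed by a median of 22.98 percentage points in replicate 1 and 16.4 points in replicate 2. The largest step between neighbours was 54.4 points in replicate 1, into bin 16, and 45.5 points in replicate 2.

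In the proximal part, bins 1 to 9, the mark covered most of bin 1 in each list, and the bins after it varied widely. Bin 1 was covered over 79.5% in replicate 1 and 62.5% in replicate 2, averaging 71.0% ± 12.0 (SD, n = 2), and over 92.2% in the combined list. The very first region of the sequence lay at 29–5624 in replicate 1 and 11–5347 in replicate 2, with scores of 2.50 and 2.33. It was the highest-scoring region of the chromosome in replicate 1 and the second highest in replicate 2, where the top was the region at 9507–25126 with a score of 2.77. Bins 2 and 3 were lower, at 42.7% and 38.5% in replicate 1 and 21.9% and 27.7% in replicate 2. They share an unmarked stretch at 86130–112549, 26.4 kb with no region in either replicate, of which the combined list covered 9.01%.

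In bins 4 to 7 the replicates differed widely. Bin 6 was covered over 79.5% in replicate 1 and 22.3% in replicate 2, and bin 7 over 62.8% and 21.8%. Bin 4 had 60.3% in replicate 1 and 27.4% in replicate 2, and bin 5 had 48.6% and 18.8%. The differences in these 4 bins, between 29.9 and 57.2 percentage points, were all above the median difference of 20.8 points over the 27 bins. Inside bin 6 lay the 2 longest stretches listed in replicate 1 alone, at 252852–262529 (9.68 kb, score 0.89) and 277323–285842 (8.52 kb, score 0.78). The first was a whole region. The second was a flank of the region at 274063–285842, which replicate 2 overlapped in part and to which the score belongs. The combined list covered 52.4% of the first and 59.3% of the second. Bin 8 was closer, with 57.2% in replicate 1 and 35.8% in replicate 2, and it held the shared stretch at 382013–389265 (7.25 kb). Bin 9 then had little of the mark, with 9.83% in replicate 1 and 12.8% in replicate 2, averaging 11.3% ± 2.11 (SD, n = 2).

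The middle part, bins 10 to 18, held both the longest stretch free of regions of both replicates and the bin with the highest share in either replicate. Bin 10 was covered over 52.2% in replicate 1 and 30.4% in replicate 2. Bin 11 had 12.4% in replicate 1 and 18.1% in replicate 2, and it contains the longest stretch with no region in either replicate, at 506427–542056 (35.6 kb). The combined list had no region there, and its own longest gap, at 502719–542487 (39.8 kb), spans it. Bin 12 was covered over 28.3% in replicate 1 and 25.3% in replicate 2. Bin 13 stood above its neighbours in both, with 69.3% and 42.6%, and held the shared stretches at 604710–613019 (8.31 kb) and 620983–629779 (8.80 kb). In bins 14 and 15 the shares were 48.1% and 30.3% in replicate 1 and 21.3% and 26.1% in replicate 2.

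Bin 16 had the highest share in each replicate, 84.7% in replicate 1 and 71.6% in replicate 2, averaging 78.1% ± 9.30 (SD, n = 2). Its core was the stretch at 765177–792791, at 27.6 kb the longest that the replicates share, with mean scores of 1.80 (replicate 1) and 1.79 (replicate 2). The replicates overlapped over 84.2% of their union within bin 16. Bin 17 followed with 40.0% in replicate 1 and 27.2% in replicate 2, and its marked part included the shared stretch at 816212–824491 (8.28 kb), with scores of 1.459 and 1.505. An unmarked stretch began shortly beyond it, at 825849–857712 (31.9 kb), with no region in any of the 3 lists. In replicate 1 that gap continued to 876448, a gap of 50.6 kb that was its longest. Bin 18 was covered over 29.1% in replicate 1 and 24.96% in replicate 2.

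The distal part, bins 19 to 27, alternated between high and low bins and ended in a bin above the chromosome's share in each list. Bin 19 was covered over 66.8% in replicate 1 and 41.8% in replicate 2. Bins 20 and 21 were lower, at 42.6% and 22.7% in replicate 1 and 18.97% and 22.1% in replicate 2. They share a stretch at 991203–1019571 (28.4 kb) with no region in either replicate, of which the combined list covered 4.54%. Bin 22 had 50.1% in replicate 1 and 19.004% in replicate 2. Bin 23 was the least covered bin of replicate 2, at 3.01%, with 18.4% in replicate 1, and it was the only bin in which the replicates shared 0% of the length. Its stretch at 1104180–1137653 (33.5 kb) had no region in either replicate, whereas the combined list had 3 regions there over 14.3% of the length. In replicate 2 the gap ran on into bin 24, to 1169566, and at 65.4 kb it was the longest of that list.

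Bin 24 was covered over 65.8% in replicate 1 and 37.3% in replicate 2, and it held the shared stretch next in length to the one in bin 1, at 1173259–1184369 (11.1 kb, scores 1.15 and 0.82). Bin 25 differed strongly between the replicates, with 58.4% in replicate 1 and 13.9% in replicate 2. Bin 26 had 63.2% and 45.7%. Bin 27, the last full bin, had 61.3% in replicate 1 and 65.7% in replicate 2, and 80.1% in the combined list. In replicate 1, bins 19, 24 and 26 of this part had higher shares. Bin 27 contained a pair of long shared regions at 1325650–1335340 (9.69 kb, scores 2.04 and 1.74) and 1338722–1348361 (9.64 kb, scores 1.94 and 1.92). In replicate 1 they scored next to the region at the start of the sequence. Beyond them the last 3496 bases in replicate 1 and 3277 bases in replicate 2 were unmarked.

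The mean region score of a bin was highest at both ends of the chromosome and in bin 16 in each replicate. It did not follow the covered share throughout, since in replicate 1 bin 6 had a share of 79.5% and a score of 0.82. The score, averaged over the regions in a bin by length, was 1.84 in replicate 1 and 2.02 in replicate 2 in bin 1. It was 1.54 in both in bin 16, and 1.64 and 1.58 in bin 27. In the other 24 bins it did not exceed 1.20 in replicate 1 (bin 7) or 1.27 in replicate 2 (bin 17). The lowest bin values were 0.67 in replicate 1, in bin 11, and 0.35 in replicate 2, in bin 23.

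**Figure D2:**
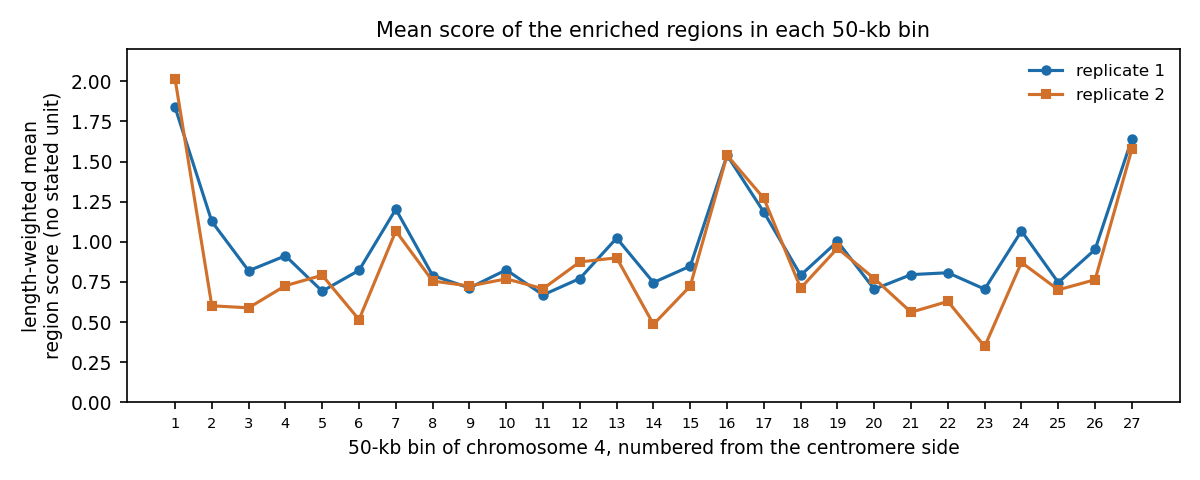
Length-weighted mean score of the enriched regions in each 50-kb bin (the authors' score, no stated unit) in replicate 1 (circles) and replicate 2 (squares); a region crossing a border counts in both bins by its length there. Bins 1, 16 and 27 lie at 1.54 or above in both replicates.

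The proximal and distal parts were then compared as the first and the last 9 full bins, with the short remainder counted as distal. The proximal part was covered over 53.2% in replicate 1 and 27.9% in replicate 2, averaging 40.6% ± 17.9 (SD, n = 2). The distal part was covered over 49.7% in replicate 1 and 29.6% in replicate 2, averaging 39.7% ± 14.2. The middle part had 43.8% and 32.0%, averaging 37.9% ± 8.39. Proximal minus distal was 3.49 percentage points in replicate 1 and -1.71 points in replicate 2, averaging 0.89 ± 3.67 (SD, n = 2). The sign differed between the replicates and the mean was smaller than the spread between them (exact two-sided sign-flip permutation test, p = 1; the smallest possible with n = 2 is 0.5). With 2 replicates, this does not show that these parts are equal.

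A smaller proximal window gave a difference of the same sign in both replicates. The first 200 kb were covered over 55.2% in replicate 1 and 34.9% in replicate 2, and the remainder over 47.8% and 28.9%, a difference averaging 6.67 points ± 1.04 (SD, n = 2; exact two-sided sign-flip permutation test, p = 0.5, the smallest possible). This window is 4 bins, and bin 1 was the highest of them in both replicates. Without the first and the last full bin, an alternative chosen after the values were seen, proximal minus distal over the 8 bins left in each part was 1.42 points in replicate 1 and -1.65 points in replicate 2.

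What the replicates shared was spread evenly over the 3 parts. Sequence listed in both covered 25.8% of the proximal part, 25.1% of the middle part and 25.8% of the distal part. The Jaccard index, the length in both lists divided by the length in either, was 46.5% in the proximal, 49.6% in the middle and 48.1% in the distal part, and 48.0% over the chromosome. After joining gaps of up to 1 kb there were 99 shared stretches with a median of 2409 bp, 35 proximal, 29 in the middle and 35 distal. The 10 longest held 32.0% of the joined shared length, and 20 were at least 5 kb long. The stretch at 12982–27494 in bin 1 (14.5 kb) was the second longest, with scores of 1.88 in replicate 1 and 2.46 in replicate 2. The stretch at 303037–310430 in bin 7 (7.39 kb) had scores of 1.25 and 0.92.

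Sequence marked in both replicates made up 25.5% of the chromosome, and more was unmarked in both. In all, 632.8 kb, or 46.8% of the chromosome, lay outside the regions of both replicates, in 152 stretches with a median of 2376 bp. Of these, 12 were at least 10 kb long and together held 260.2 kb, or 41.1% of the unmarked length. There were 5 of the long ones in the proximal part, 4 in the middle and 3 in the distal part.

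The shares of the 27 bins in the replicates had Pearson's r of 0.67 and Spearman's rho of 0.65. Without bins 1, 16 and 27, chosen after their values were seen, r was 0.58 and rho 0.55 over 24 bins. Both are descriptions across bins that share a library, with no test. Replicate 1 had the higher share in 24 of 27 bins, and replicate 2 in bins 9, 11 and 27. The difference, replicate 1 minus replicate 2, ran from -5.64 to 57.2 percentage points. By part it was 25.3 points in the proximal, 11.9 points in the middle and 20.1 points in the distal part.

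**Figure D3:**
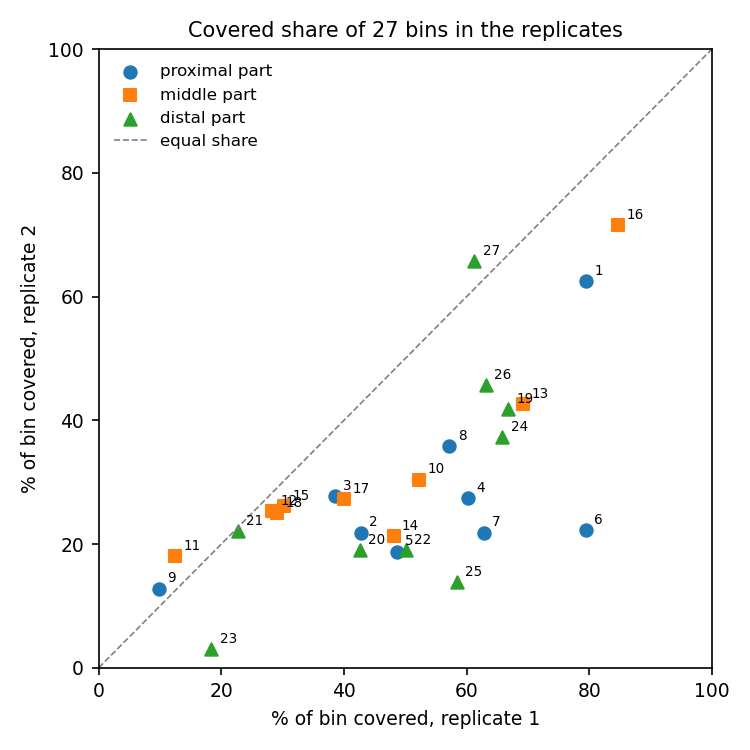
Covered share of each 50-kb bin (percent) in replicate 1 and replicate 2, with 1 point per bin, its number beside it and the part of the chromosome as its shape; the dashed line marks equal shares. In total, 24 of 27 bins lie below the line, and bins 6 and 25 lie farthest from it.

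The length listed in replicate 1 alone was 315.9 kb, and that in replicate 2 alone was 57.7 kb. Most of what replicate 1 alone listed was not made of separate regions. In replicate 1, 160.2 kb (50.7%) lay at the flanks of regions that replicate 2 also listed in part, 35.1 kb (11.1%) inside such regions between pieces of replicate 2, and 120.5 kb (38.1%) in regions with no overlap. In replicate 2, regions with no overlap made up 37.2 kb (64.5%), flanks 18.4 kb (31.8%) and inner parts 2.16 kb (3.74%). Regions of replicate 1 overlapped by 2 or more regions of replicate 2 numbered 17, and the reverse occurred in 2 cases. The extreme case was the region at 37955–62949 in replicate 1 (24.995 kb), which held 6 separate regions of replicate 2.

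**Figure D4:**
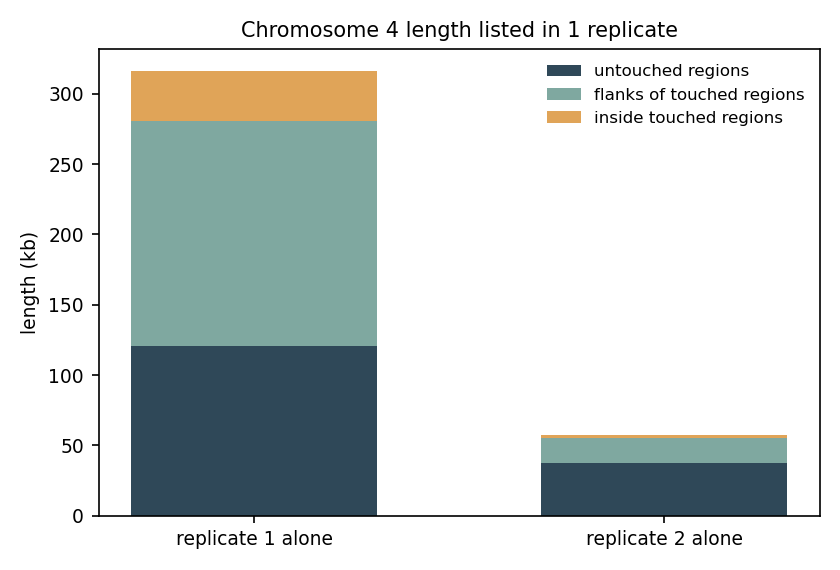
Length on chromosome 4 (kb) listed in replicate 1 alone and in replicate 2 alone, split into regions with no overlap in the other replicate, flanks of overlapped regions and gaps inside overlapped regions. The bars reach 315.9 kb and 57.7 kb, and flanks are the largest piece in replicate 1.

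Edges were compared in the 68 pairs in which 1 region of each replicate overlapped 1 region of the other and no more. The starts differed by a median of 364.5 bp and the ends by 499 bp. Of the 68 pairs, 43 had starts within 500 bp of each other, 34 had ends within 500 bp and 23 had both. The region of replicate 1 was the longer in 54 pairs, with a median of 3775 bp against 2143 bp in replicate 2, and in 43 pairs it enclosed the other. The median score in these pairs was 0.81 in replicate 1 and 0.66 in replicate 2. The scales of the lists may differ, so the levels cannot be compared between them. The scores of the pairs had Spearman's rho of 0.66 and the lengths 0.52, as descriptions across pairs.

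The overlap was then counted by length and by score, as a description with no test. It covers chromosome 4 only. The like shares over all regions of the lists, and the Jaccard index elsewhere, are not given here. The counts therefore do not set chromosome 4 apart from other sequences. Replicate 2 overlapped 88 of the 134 regions of replicate 1 by at least 1 bp. It overlapped all 14 regions of at least 10 kb, 25 of 26 between 5 and 10 kb, 39 of 65 between 2 and 5 kb, and 10 of 29 under 2 kb. A longer region has more chance of being touched, so the covered length is also given, and it was 57.6% in the longest class, 65.4%, 40.6% and 26.2% in the shortest. Of the 39 regions of replicate 1 at or above its median score over the genome, 38 were overlapped, and of the 95 below it, 50 were. The median score of the 46 regions without overlap was 0.63, and that of the 88 with overlap was 0.86. The longest region without overlap had 9678 bp.

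Replicate 1 overlapped 115 of the 134 regions of replicate 2. By length, the overlapped ones ran from 47 of 59 regions under 2 kb to all 11 regions between 5 and 10 kb and all 4 of at least 10 kb. The covered length was 75.3% in regions under 2 kb and 84.6% between 2 and 5 kb. It was 96.0% between 5 and 10 kb and 92.9% in the longest class. Of the 36 regions at or above the median score, 33 were overlapped, and of the 98 below it, 82 were. The 19 regions without overlap had a median of 1840 bp and a maximum of 3353 bp, against a median of 2169 bp in the 115 with overlap. Most regions of this list were as short, with an upper quartile of 3315 bp. Of the 19, 11 lay in the middle part, with 3 in the proximal and 5 in the distal part. The longest stretch of replicate 2 alone, at 9507–12981 (3.48 kb), is an edge of a longer region that scored 2.77. The next 4 were at 738599–741951 (3.35 kb), 1042813–1045877 (3.07 kb), 549764–552660 (2.90 kb) and 553462–556057 (2.596 kb). The other long stretches of replicate 1 alone, beside those in bin 6, were at 1086428–1094257 (7.83 kb), 635243–641246 (6.00 kb) and 310431–316421 (5.99 kb). All of these were flanks of longer regions, at 1086428–1101985, 633568–641246 and 300790–316421, which replicate 2 overlapped in part.

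Because replicate 1 covered more of the chromosome, its list was also reduced by score to the covered length of replicate 2. That kept 51 regions with 406.6 kb and scores of 0.84 or more. The shared length was then 263.3 kb, 64.8% of the reduced list and 65.3% of replicate 2, with a Jaccard index of 48.2%, close to that of the full lists. Pearson's r of the bin shares was 0.79 in that comparison, above the 0.67 of the full lists.

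The combined list contained all of the 345.4 kb that the replicates shared. Of the remainder, it held 58.9% of the length in replicate 1 alone (186.0 kb) and 98.0% of that in replicate 2 alone (56.6 kb). For replicate 1 this share was 55.5% in the proximal, 60.3% in the middle and 61.6% in the distal part. Of the 46 regions found in replicate 1 only, 29 were touched by the combined list, and of the 19 found in replicate 2 only, all 19 were. The like shares over the whole genome are not given here, so these counts do not set chromosome 4 apart. A further 57.6 kb of the combined list, 8.93% of its length on the chromosome, lay outside both replicates, including 21 whole regions, whose median length was 1357 bp and whose median score was 0.39. The combined share lay between those of the replicates in 17 bins and above both in 10, and it was below both in 0 bins.

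Chromosome 4 was set beside the distal large arms (X, 2L, 2R, 3L and 3R without their centromere-proximal 2 Mb) and the mapped heterochromatin scaffolds (2LHet, 2RHet, 3LHet, 3RHet, XHet and YHet) by the same bins. Chromosome 4 consisted mainly of partly covered bins, here those covered over 20% to 80%. They were 85.2% of its 27 bins in replicate 1 and 74.1% in replicate 2, averaging 79.6% ± 7.86 (SD, n = 2). On the distal arms they were 20.2% and 46.4% of 2178 bins, averaging 33.3% ± 18.5. The difference was 65.0 points in replicate 1 and 27.7 points in replicate 2, averaging 46.3 ± 26.4 (SD, n = 2). The mean was larger than the SD of these 2 values. Both values had the same sign (exact two-sided sign-flip permutation test, p = 0.5, the smallest possible). With n = 2 any values of the same sign give this p, so the test cannot decide whether the difference is beyond the spread. When only the better-scoring 50% of regions of each list were kept, the difference was 35.4 points in replicate 1 and -2.43 points in replicate 2. Only 29.1% of chromosome 4 regions in replicate 1 and 26.9% in replicate 2 reached the median score of their list. That cut therefore removed a larger share of the regions of chromosome 4 than of the whole list.

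On the heterochromatin scaffolds the partly covered bins were 34.4% of 183 bins in replicate 1 and 67.2% in replicate 2. Chromosome 4 exceeded them by 50.8 points in replicate 1 and 6.86 points in replicate 2, averaging 28.8 ± 31.0 (SD, n = 2). The mean was smaller than the SD, and both values had the same sign (exact two-sided sign-flip permutation test, p = 0.5). This p again reflects the shared sign only. Bins covered over more than 80% were 3.70% of chromosome 4 in replicate 1 and 0% in replicate 2, against 61.2% and 26.8% on the scaffolds and 0.184% and 0.505% on the distal arms. Bins with no listed region were 0% of chromosome 4 in both replicates. On the distal arms they were 27.2% of bins in replicate 1 and 9.46% in replicate 2, and on the scaffolds 3.28% in both. No test beyond the replicates was made of these shares.

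**Figure D5:**
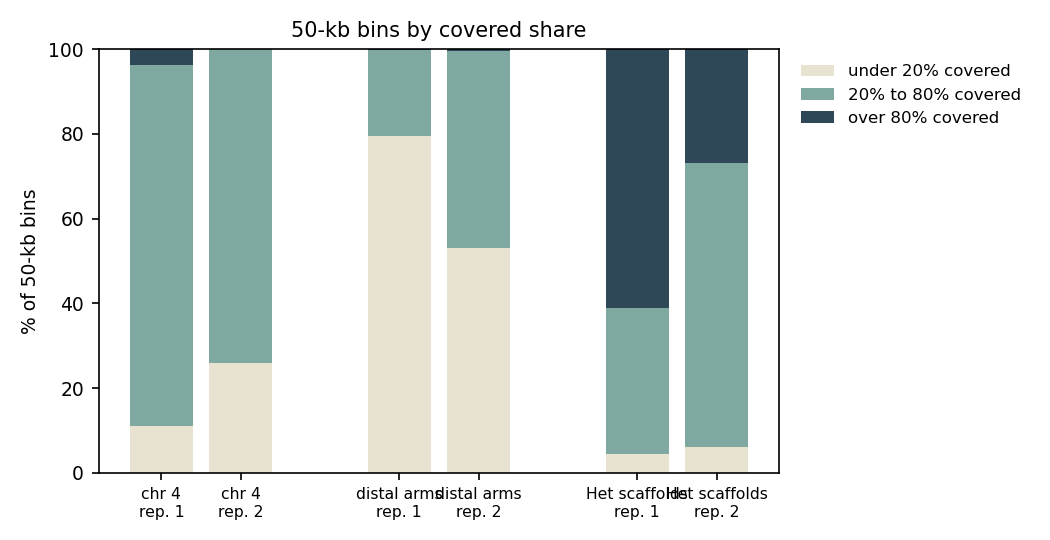
Share of 50-kb bins (percent of bins, stacked) covered over less than 20%, 20% to 80% and more than 80% on chromosome 4, the distal large arms and the Het scaffolds, in each replicate. On chromosome 4 the class of 20% to 80% makes up 85.2% and 74.1% of the bins.

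Chromosome 4 had 99.1 regions per Mb in both replicates, against 37.7 per Mb in replicate 1 and 70.3 per Mb in replicate 2 on the distal arms. The difference averaged 45.1 ± 23.1 per Mb (SD, n = 2), with a mean larger than the SD. It had the same sign in both replicates (exact two-sided sign-flip permutation test, p = 0.5, the smallest possible). Here too the p reflects the shared sign only. The scaffolds had 53.1 and 101 regions per Mb. The median gap between regions was 2786 bp on chromosome 4 in replicate 1 and 3839 bp in replicate 2, against 8538 and 4634 bp on the distal arms and 1547 and 1401 bp on the scaffolds. The replicates also departed from each other on chromosome 4 in the direction seen on the scaffolds. Replicate 1 had the higher share in 24 of 27 bins of chromosome 4, 168 of 183 bins of the scaffolds and 57 of 2178 bins of the distal arms. The median difference, replicate 1 minus replicate 2, was 20.8 points on chromosome 4, 10.6 points on the scaffolds and -9.32 points on the distal arms. Pearson's r of the bin shares was 0.67 on chromosome 4, 0.93 on the scaffolds and 0.89 on the distal arms, over bins of 1 library pair with no test. Read depth is unknown, and its part in these differences was not tested.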

How the data were processed

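Each ChIP library has its own list of regions and a further list covers the replicate set, as deposited by the authors, with a score per region. The score was positive in the regions used here, and its unit is not stated. The lists are on FlyBase Release 5, per the file headers, and Bowtie 0.12.7 is named in the submitters' processing notes. How regions were called and replicates merged is not given in the sources used here. The lists hold no read counts, so the depth of a library is unknown and counting error could not be computed. Calls made separately for each library depend on its depth. The shortest region on chromosome 4 had 1001 bp.

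Covered lengths, overlaps and 50-kb bins were computed base by base (Python 3.11.15, numpy 2.4.6, scipy 1.17.1) and tested on simulated lists. Values are per replicate, with mean ± SD (n = 2), and differences were tested over the replicates by an exact permutation test (two-sided, flipping signs). Named stretches are the 10 longest shared (gaps up to 1 kb joined), the 5 longest outside both replicates, the 5 longest of each replicate alone and the 3 highest-scoring regions of each replicate. The members and these rules were chosen with earlier results of these data known. Input libraries had no values used here. Alternatives are given at the end.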

Additional observations from a re-analysis of the deposited data

How the results depend on the processing

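The covered share of chromosome 4 (mean 39.4%) moved by more than the spread between replicates only with the better-scoring 50% of each list, to 18.9%, which removes regions by construction. It was 52.1% with gaps up to 5 kb between regions joined, 40.3% with gaps up to 1 kb joined and 47.8% in the combined list. With each replicate left out it was 29.8% to 48.9%. Proximal minus distal (0.89 points) had no stable sign: it was -2.21 points with the better-scoring 50%, -0.76 with the chromosome split at its midpoint, -2.81 in the combined list, -0.11 without the first and last full bin (an alternative chosen after seeing the data) and 6.67 with the first 200 kb against the remainder, and leaving out each replicate gave -1.71 to 3.49; the cause was not tested. The Jaccard index (48.0%) was 42.0% with the better-scoring 50% of each list, 42.7% with the better-scoring 50% of its chromosome 4 regions, 48.2% with gaps up to 1 kb joined and 48.2% at equal covered length. The switches between bins (mean 15) fell to 6 with 100-kb bins, which have fewer borders, and were 14 to 16 with each replicate alone. They also depended on where the bins start: shifted by 25 kb, the 50-kb bins gave 10 (replicate 1), 12 (replicate 2) and 14 (combined list). With 25-kb bins there were 20 in each replicate and 26 in the combined list. At a fixed threshold of 50% covered they were 16 in replicate 1 and 4 in replicate 2. Pearson's r of the bin shares (0.67) was 0.65 with 25-kb bins, 0.54 with 100-kb bins, 0.60 with bins shifted by 25 kb and 0.74 with the better-scoring 50%. With at least 50% of a region covered, replicate 2 overlapped 50% of the regions of replicate 1, against 65.7% with 1 bp. The excess of partly covered bins over the distal arms (46.3 points) was 16.5 with the better-scoring 50% and 27.70 to 65.0 with each replicate alone. Leaving out regions under 1 kb changed nothing, since there were 0 on the chromosome. No paired analysis was possible because only ChIP and input share replicate numbers, and no input values were read here. Whether input entered the authors' calls is not given in the sources used here. Differences between parts of the genome were taken within each replicate. With 2 replicates the sign-flip test cannot give p under 0.5.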
